A study of Homo sapiens with 40 samples.

Results

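The genes described here are 9 that encode ligands through which immune cells read a target cell: the NKG2D ligands MICA, MICB, ULBP1, ULBP2 and ULBP3, the nectin-family ligands PVR and NECTIN2, the PD-1 ligand CD274 and the SIRPα ligand CD47. They are 9 of 20033 protein-coding genes in GENCODE 44. All H3K27ac and CTCF peaks within 2 kb of one of their start sites, inside their gene bodies, or nearest to them within 100 kb were taken, together with the enhancers listed for each cell state. That rule gave 8 of 51489 H3K27ac peaks, 17 of 51457 CTCF peaks, 2 of 14886 enhancers of non-senescent cells and 3 of 13076 enhancers of senescent cells. Of 2435 senescence-specific Rb regions it gave 0.

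The cells were EndoC-βH3, a line of human beta-like cells derived from fetal pancreas, which carries hTERT and SV40 Large T antigen as immortalizing transgenes that a tamoxifen-activated Cre can excise. Senescent cells had been treated with 4-OHT for 3 weeks, and the non-senescent cells of the same line had not been treated. ChIP-seq was carried out for H3K27ac, an acetylation found on histones at active regulatory DNA, and for CTCF, a zinc-finger protein at loop anchors and insulators, in 3 libraries per state, and H3K4me1 and Rb in 2 libraries per state. Excision of SV40 Large T also frees p53 and Rb from its inhibition, so loss of the transgenes and senescence cannot be told apart in these groups, and 1 line limits what they model. All 9 beta-cell markers (INS, PDX1, NKX6-1, MAFA, NEUROD1, ISL1, NKX2-2, CHGA and SLC30A8) had an H3K27ac peak at a start site, as did 2 of 3 alpha-cell, 2 of 2 delta-cell, 1 of 3 duct, 1 of 3 acinar, 2 of 4 leukocyte, 0 of 3 endothelial and 0 of 3 fibroblast markers.

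NKG2D is an activating receptor of natural killer cells and cytotoxic T cells, and its ligands appear at the surface of stressed, infected or transformed cells. PVR and NECTIN2 bind the activating receptor DNAM-1 and the inhibitory receptor TIGIT, so that the same ligand can activate or restrain a natural killer cell. CD274 (PD-L1) restrains T cells through PD-1, and CD47 restrains phagocytosis by macrophages through SIRPα.

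The values given below are the authors' mean normalized counts per peak, taken over the libraries of both states together. They have no spread and no number of replicates, and the depth of single libraries is not given by the tables, so a level describes the cells of both states and no error can be set beside it. The states were set side by side through the lists of enhancers alone. Senescent and non-senescent levels of a peak are not compared here. The cells were profiled in bulk, so fewer cells with a mark and less of it per cell cannot be told apart.

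H3K27ac marked the start sites of 4 of the 9 genes: ULBP3, PVR, NECTIN2 and CD47. Among all protein-coding genes, 67.5% had an H3K27ac peak within 2 kb of a start site. No H3K27ac peak was listed at a start site of MICA, MICB, ULBP1, ULBP2 or CD274. CTCF was listed at start sites of 6 genes, MICB, ULBP1, ULBP3, PVR, NECTIN2 and CD274, where 52.8% of all protein-coding genes had a CTCF peak. Both marks were listed at ULBP3, PVR and NECTIN2, CTCF without H3K27ac at MICB, ULBP1 and CD274, H3K27ac without CTCF at CD47, and neither at MICA or ULBP2. Among all protein-coding genes, CTCF was at a start site in 64.9% of those with H3K27ac there and in 27.5% of those without. None of the 9 genes had an Rb region at a start site, where 1.64% of all protein-coding genes had one. None was assigned to them by the wider rule either.

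**Figure D1:**
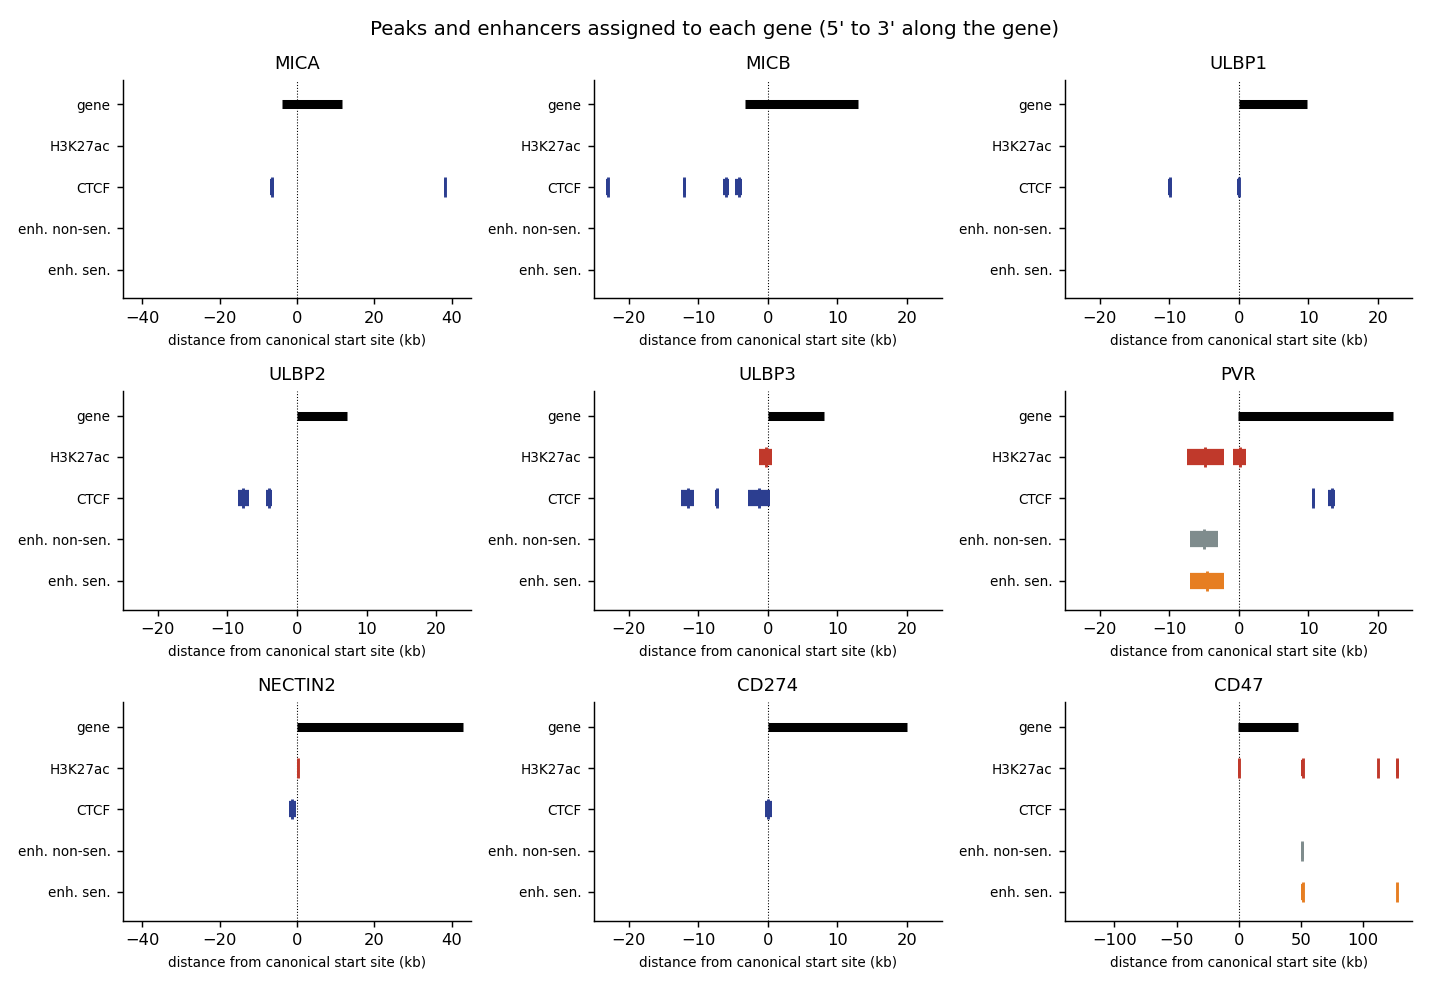
Each panel plots one gene along the distance from its canonical start site in kb, with the gene body in black, H3K27ac peaks in red, CTCF peaks in blue and the enhancers of non-senescent (grey) and senescent (orange) cells below; a tick marks each feature's centre, and panels differ in range. H3K27ac appears in the panels of ULBP3, PVR, NECTIN2 and CD47, enhancers in those of PVR and CD47, and CTCF in all panels but that of CD47.

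The sequences before the start sites of 4 genes are given first, because they show how differently built the promoters of these ligands are: ULBP3 and CD47, which carried H3K27ac, and CD274 and MICB, which did not. They are RefSeq promoter sequences on GRCh38.p14, matched by symbol for 9 of 9 genes and identical to hg38, read 5′ to 3′ on the gene's strand, and cut where an annotated exon of the gene begins. Capitals mark matches, on either strand, to short motif cores that were searched in the 250 bases before the RefSeq start: the GC box (GGGCGG), an interferon response core (GAAANNGAA), a STAT GAS element (TTCNNNGAA), a heat shock unit (GAANNTTC), the CCAAT box (CCAAT) and an E2F core (TTTNNCGC). A match describes letters and is not a bound site.
ULBP3, chr6:150069122-150069371, minus strand: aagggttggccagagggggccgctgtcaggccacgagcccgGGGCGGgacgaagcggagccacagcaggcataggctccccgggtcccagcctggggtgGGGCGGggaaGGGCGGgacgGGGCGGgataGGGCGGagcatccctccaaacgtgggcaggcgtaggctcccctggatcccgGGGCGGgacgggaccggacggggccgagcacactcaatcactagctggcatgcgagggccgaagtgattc
CD47, chr3:108091032-108091281, minus strand: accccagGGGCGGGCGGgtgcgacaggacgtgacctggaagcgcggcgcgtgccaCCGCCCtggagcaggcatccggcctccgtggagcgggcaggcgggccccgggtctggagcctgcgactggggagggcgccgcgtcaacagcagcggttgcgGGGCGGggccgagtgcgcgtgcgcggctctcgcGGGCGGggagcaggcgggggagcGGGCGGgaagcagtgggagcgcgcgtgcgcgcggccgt
CD274, chr9:5450292-5450502, plus strand: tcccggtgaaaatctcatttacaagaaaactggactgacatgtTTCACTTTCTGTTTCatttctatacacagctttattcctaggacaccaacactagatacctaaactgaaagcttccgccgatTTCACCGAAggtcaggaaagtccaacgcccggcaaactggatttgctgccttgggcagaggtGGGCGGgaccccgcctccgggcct
MICB, chr6:31497895-31498085, plus strand: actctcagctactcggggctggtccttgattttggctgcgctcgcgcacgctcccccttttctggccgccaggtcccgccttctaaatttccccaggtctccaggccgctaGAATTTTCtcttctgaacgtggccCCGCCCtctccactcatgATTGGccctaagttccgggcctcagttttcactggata

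The 250-base windows of ULBP3 and CD47 each held 6 GC boxes, some of them overlapping in CD47, and that of NECTIN2 held 3. PVR, whose start-site H3K27ac level per kb was the highest of these genes, held none, and each of the remaining 5 genes held 1 or 2. A GC box was present in 8 of the 9 windows and in 42.3% of 27305 RefSeq promoters. CD274 was the one gene among the 9 with the interferon response core, which it held at 2 overlapping places, and with the STAT GAS element. These 2 motifs were found in 7.06% and 6.78% of all promoters. CD274 is known as an interferon-inducible gene, and the letters stand in its window whether or not the gene is active in these cells. The CCAAT box was found in the windows of MICA, MICB and ULBP2 and in 33.0% of all promoters, and the E2F core in those of ULBP2 and NECTIN2 and in 5.93%. No window of the 9 held the NF-kB core GGGANTTCC (1.6% of all promoters), the AP-1 core TGANTCA (6.6%), the E-box CACGTG (6.49%), the CRE TGACGTCA (1.77%), the TATA box TATAAA (11.1%) or the heat shock unit in its other order, TTCNNGAA (6.72%), which says only that these letters are not in these windows.

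MICA and MICB share a heat shock unit. MICA and MICB encode MHC class I-like proteins whose promoters are known to respond to heat shock. The unit GAANNTTC began 135 bases before the RefSeq start in MICA and 139 bases before it in MICB, in no other window of the 9, and in 5.85% of all promoters. The 30 bases around it, with the unit in capitals, show how alike the 2 promoters are; in MICA they fall in an exon of a transcript that starts farther upstream.
MICA, chr6:31403449-31403478, plus strand: ccagcccactgGAATTTTCtcttccaagcg
MICB, chr6:31497995-31498024, plus strand: ccaggccgctaGAATTTTCtcttctgaacg
Over the whole 250 bases the 2 windows were identical at 82.7% of aligned positions, 210 of 254. The next most alike of the 36 pairs of windows, NECTIN2 with CD47, reached 55.7%, and the median pair 49.0%.

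Among these 9 genes, with every listed peak counted, the promoters with and without H3K27ac overlapped in CpG content and not in GC content. GC content of the 300-base RefSeq windows, which reach 50 bases past the start, was 56.67% in ULBP2, 57.33% in CD274, 59.0% in MICB, 62.67% in ULBP1 and 64.67% in MICA, the 5 genes without a start-site H3K27ac peak. It was 67.33% in PVR, 68.33% in NECTIN2, 70.67% in ULBP3 and 79.0% in CD47, the 4 genes with one. The 2 ranges did not overlap. This rests on counting NECTIN2, whose peak had a mean count of 18.7. Where a mean count of at least 50 was asked for, NECTIN2 at 68.33% joined the genes without a peak. It then stood above PVR at 67.33%, and the ranges overlapped. Over all protein-coding genes, an H3K27ac peak was at a start site in 75.1% of the 4097 genes with GC content in the first range and in 83.1% of the 4669 in the second. Most genes in either range thus had such a peak, and the ranges themselves were taken from these 9 genes. The ratio of observed to expected CpG ran from 0.68 in MICA to 0.91 in CD274 among the 5 and from 0.74 in ULBP3 to 1.01 in CD47 among the 4, so these ranges overlapped. All 9 values lay above the median of all promoters, 0.58.

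**Figure D2:**
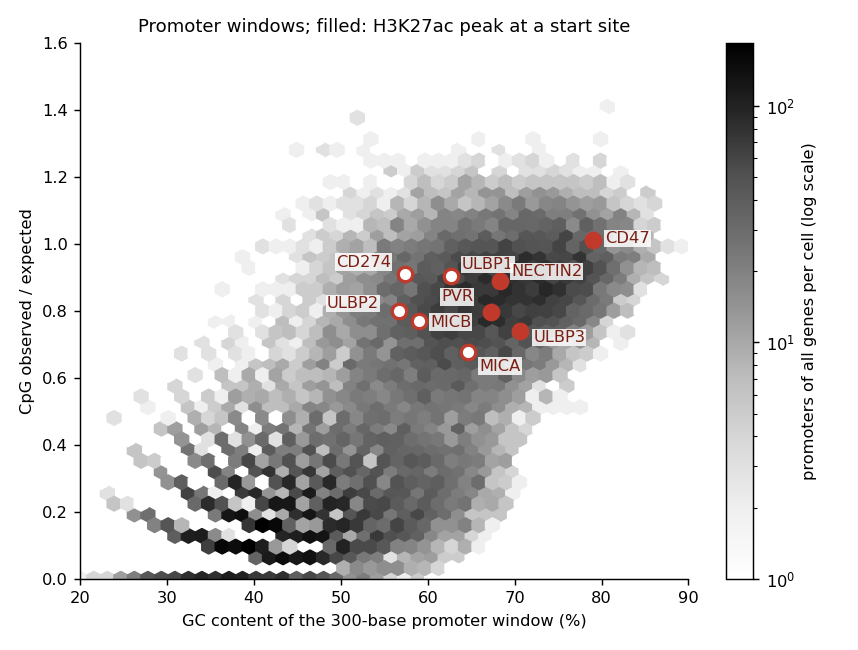
GC content (%) of the 300-base promoter window is plotted against its ratio of observed to expected CpG, with all RefSeq promoters as grey cells (log scale of counts) and the 9 genes as circles, filled where an H3K27ac peak was at a start site. The filled circles lie from 67.33% GC upward and the open circles at or below 64.67%, while the CpG ratios of both kinds overlap. The filled circle of NECTIN2 stands for a weak peak with a mean count of 18.7.

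Among the NKG2D ligands, ULBP3 was the single gene with an H3K27ac peak. ULBP3 is a GPI-anchored ligand encoded at the end of the ULBP/RAET1 cluster on chromosome 6. Its H3K27ac peak (hg38 chromosome 6, 150068486 to 150070331) covered the start site and overlapped the first exon, with a mean count of 226.5, or 122.7 per kb of peak. Among the 13531 protein-coding genes with a start-site peak, the median level was 184.1 per kb and 27.5% had a lower level than ULBP3. A CTCF peak (150068753 to 150072023) overlapped it by 1579 bp, 85.5% of the H3K27ac peak. The CTCF peak was 3271 bp wide and had a mean count of 521.6, higher than 98.3% of all CTCF peaks. It was the strongest of the 17 CTCF peaks at these genes by mean count, but not per kb. At 159.5 per kb it was above 76.8% of genes with a start-site CTCF peak, and the NECTIN2 peak was higher at 210.6 per kb. Upstream of ULBP3 lay a weak CTCF peak with a mean count of 20.3, 7027 bp away, and a strong one with 280.1, 10544 bp away. Neither of these overlapped H3K27ac.

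ULBP1 and ULBP2, the neighbouring GPI-anchored ligands, had CTCF without H3K27ac. The CTCF peak at the ULBP1 start site (149963712 to 149964200, over its first exon) had a mean count of 13.6. At 27.9 per kb it was above 4.24% of the 10570 genes with a start-site CTCF peak, where the median was 89.2 per kb. A second peak assigned to ULBP1 lay 9554 bp upstream with a mean count of 39.6. ULBP2 had no peak within 2 kb of its start, but CTCF peaks 3536 and 6956 bp upstream with mean counts of 65.0 and 182.6. The closest H3K27ac peak to the ULBP1 start was 40846 bp away, nearest to RAET1L, with a mean count of 76.6. For ULBP2 it was 37111 bp away, nearest to RAET1E, with a mean count of 62.0. H3K27ac in the cluster was therefore listed at the start of ULBP3, and not at the starts of ULBP1 and ULBP2. The peaks nearest to RAET1E and RAET1L lay 5584 and 19522 bp from the canonical starts of those genes.

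MICA and MICB lay in a stretch of 336 kb on chromosome 6 (31203390 to 31539103) without an H3K27ac peak. The stretch held 5 whole protein-coding genes, HLA-C, HLA-B, MICA, MICB and MCCD1, and 9 CTCF peaks. Stretches at least this long between neighbouring H3K27ac peaks numbered 1186 in the genome and held 1854, or 9.25%, of protein-coding genes. The first H3K27ac peak beyond it, nearest to DDX39B and with a mean count of 1717, began 40959 bp from the MICB start and 135509 bp from the MICA start. CTCF was the mark seen at both genes. MICA had a peak with a mean count of 159.8 that ended 2016 bp before its most upstream annotated start, just outside the 2 kb window, and a weak one with 9.65 downstream. MICB had 4 CTCF peaks, the farthest in an intron of the lncRNA HCP5 and the others in MICB-DT, the divergent transcript upstream of MICB, with mean counts of 8.96, 16.6, 55.6 and 106.1 from far to near. The nearest (31493430 to 31494449) lay 432 bp before the most upstream of 4 annotated MICB starts and 3696 bp before the canonical one. Start-site CTCF at MICB thus belongs to 1 of its 4 annotated starts.

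MICA and MICB are similar genes in the HLA region, which is known to be polymorphic. How well reads from them, or from HLA-B and HLA-C in the same stretch, could be placed was not measured. Of the 32-base words within 2 kb of the canonical start, 72.5% occurred once in hg38 for MICA, 70.4% for MICB and 74.9% for ULBP2, the 3 lowest of the 9 genes. The others ran from 81.2% for PVR to 100.0% for CD47. The part of this in the absence of listed H3K27ac peaks was not tested.

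PVR had the highest start-site H3K27ac level per kb of the 4 genes with such a peak. PVR (CD155) is a nectin-like adhesion molecule. Its start-site H3K27ac peak (chromosome 19, 44643059 to 44645041, over the first exon) had a mean count of 544.7, or 274.7 per kb, above 76.6% of genes with a start-site peak. It lay within 2 kb of 10 of the 12 annotated PVR starts. A wider H3K27ac peak (44636491 to 44641770) ended 2028 bp before the nearest start, just outside the promoter window, with a mean count of 559.2, or 105.9 per kb. It lay in an intron of the antisense transcript CEACAM16-AS1 and overlapped an exon of the neighbouring gene IGSF23. No CTCF peak was at the canonical PVR start. CTCF was listed inside the gene, 10493 bp past the start with a mean count of 22.7 and 12822 bp past it with 134.1. The second of these (44656732 to 44657828) was counted as a start-site peak through 1 internal transcript start. At 122.2 per kb it was above 63.9% of genes with a start-site CTCF peak.

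NECTIN2 had a low H3K27ac level and a high CTCF level at its start. NECTIN2 (CD112) is a nectin that binds the same receptors as PVR. Its H3K27ac peak (44846245 to 44846744) was 500 bp wide with a mean count of 18.7, and at 37.4 per kb it was above 1.36% of genes with a start-site peak. The CTCF peak before it (44844113 to 44846107) had a mean count of 420.1 and, at 210.6 per kb, was above 88.9% of genes with a start-site CTCF peak. The 2 peaks were 137 bp apart and did not overlap. PVR had 7.35 times the H3K27ac level per kb of NECTIN2, and NECTIN2 had 1.72 times the CTCF level per kb of PVR. The PVR CTCF peak lay 12822 bp past the canonical start, so the CTCF ratio compares unlike places. Both comparisons are between pooled means and have no replicate check.

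CD274 and CD47, whose products restrain immune cells, were marked in opposite ways. CD274 had 1 CTCF peak (chromosome 9, 5450143 to 5451093) over its first exon, with a mean count of 103.4. At 108.8 per kb it was above 58.9% of genes with a start-site CTCF peak. No H3K27ac peak and no enhancer was assigned to CD274, and the closest H3K27ac peak, nearest to PLGRKT, was 11594 bp upstream with a mean count of 232.1. CD47 had no CTCF peak by the rule. The closest one was 62315 bp from its start, nearest to IFT57, with a mean count of 12.6. The H3K27ac peak at the CD47 start (chromosome 3, 108090075 to 108091831, over the first exon) had a mean count of 227.3, or 129.4 per kb, above 29.9% of genes with a start-site peak. ULBP3 and CD47 thus had nearly equal start-site levels, 122.7 and 129.4 per kb, between those of NECTIN2 and PVR. Whether such neighbouring levels differ beyond the spread between libraries could not be judged from pooled means.

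**Figure D3:**
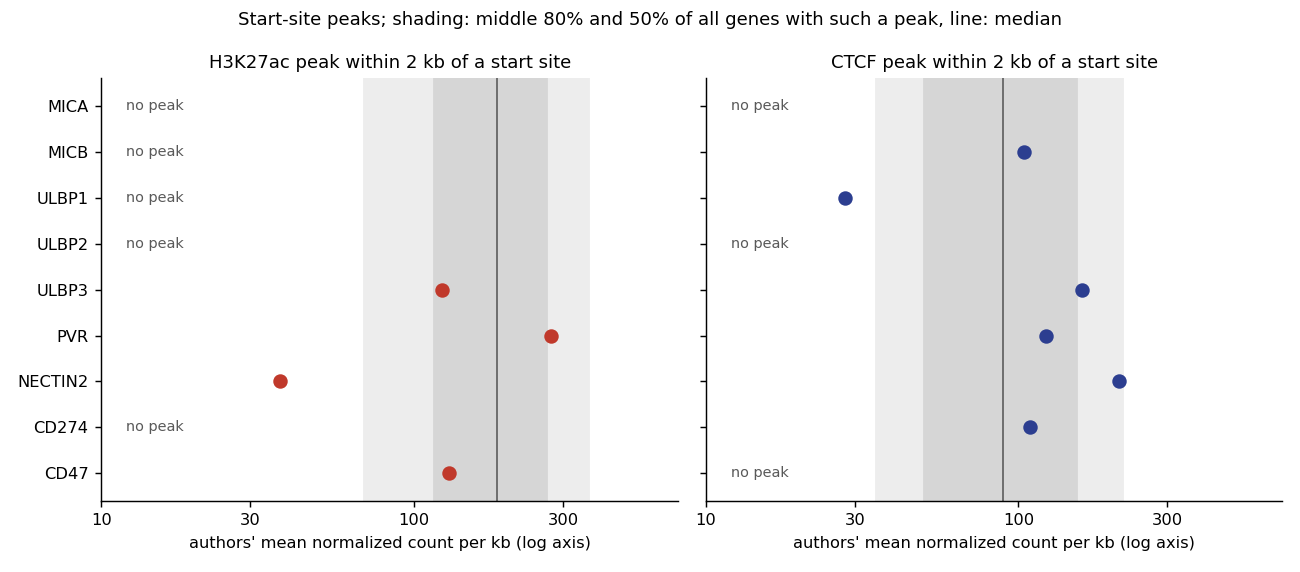
Authors' mean normalized counts per kb of peak (log axis) at the start sites of the 9 genes are shown for H3K27ac (left) and CTCF (right); shading spans the middle 80% and 50% of all protein-coding genes with such a peak and the line is their median. PVR is the 1 gene above the H3K27ac median and NECTIN2 lies below the shading, while for CTCF ULBP1 lies below the shading and 5 genes lie above the median.

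Of the 8 H3K27ac peaks, 3 overlapped a listed enhancer, as did 33.3% of all H3K27ac peaks. The paper defined enhancers as places with both H3K4me1 and H3K27ac that lie outside promoters. Of the 8 peaks, 4 were start-site peaks, which that definition largely keeps off the lists. At ULBP3 and NECTIN2 the only assigned H3K27ac peak was of this kind. Listed enhancers fell at 2 of the 9 genes, PVR and CD47, where 31.0% of protein-coding genes were the nearest gene within 100 kb of an enhancer of either state. None fell at an NKG2D ligand of the 9, at NECTIN2 or at CD274. The PVR enhancer was listed in both states, over the wide upstream H3K27ac peak. It spanned 4022 bp in non-senescent cells (44636950 to 44640971) and 4870 bp in senescent cells (44636901 to 44641770), which contained the whole of the first and was 848 bp wider, most of it toward the PVR start. The CD47 enhancer beyond the 3′ end of the gene was also listed in both, with 1823 bp in non-senescent cells (108038749 to 108040571) and 2080 bp in senescent cells (108038386 to 108040465), sharing 1717 bp. It lay over the lncRNA ENSG00000279277, 50460 bp past the canonical CD47 start, and its H3K27ac peak had a mean count of 259.9, or 118.9 per kb, against 227.3, or 129.4 per kb, at the CD47 start. The senescent version was 1.21 times as wide at PVR and 1.14 times at CD47. Over all 9956 enhancers that overlapped one to one between the lists, the median ratio was 1.04 with quartiles at 0.871 and 1.25, and the senescent version was the wider in 57.1%, so both genes lay within the middle range.

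One enhancer was listed in senescent cells alone. It was assigned to CD47 as the nearest protein-coding gene within 100 kb, and was not assigned to CD47 with a limit of 50 kb or with noncoding genes counted as nearest genes. It spanned 1230 bp in intergenic sequence on chromosome 3 (107962529 to 107963758), 90981 bp from the nearest annotated start of CD47 and 127273 bp past the canonical one. The H3K27ac peak over it (107962180 to 107964040) was present in the table with a mean count of 112.9, higher than 48.8% of all H3K27ac peaks. Another H3K27ac peak between this and the gene, with a mean count of 28.6, was in no enhancer of either state. Of all enhancers, 20.5% of those of senescent cells and 29.4% of those of non-senescent cells had no overlap in the other list. At the 9 genes the counts were 1 of 3 and 0 of 2, too few to set apart from these shares. No CTCF peak stood between any of these enhancers and the canonical start of its gene, and the share over all enhancers was not computed. No start of another protein-coding gene stood there either, which assignment to the nearest gene largely fixes in advance.

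**Figure D4:**
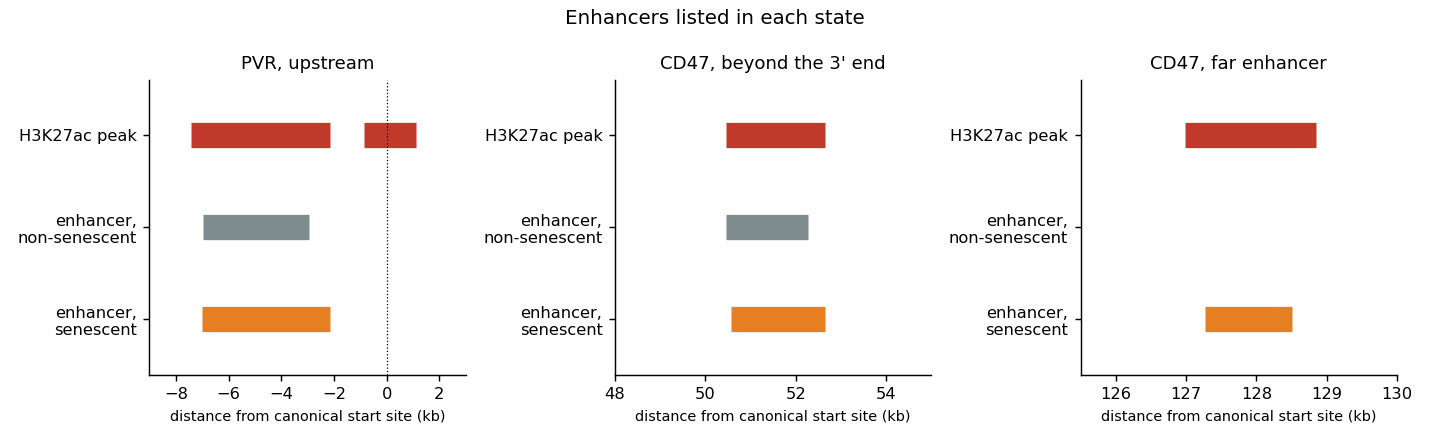
H3K27ac peaks (red) and enhancers listed in non-senescent (grey) and senescent (orange) cells are drawn along the distance in kb from the canonical start site, for the PVR enhancer and both CD47 enhancers. The grey and orange bars overlap at PVR and beyond the 3′ end of CD47, and the far CD47 enhancer has an orange bar alone.

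The CTCF core motif was found in 7 of the 17 CTCF peaks with at most 1 mismatch over 14 bases, on either strand. Of all CTCF peaks, 35.0% held it, and of windows of the same length shifted by 10 kb, 2.54%. None of the peaks over the starts of ULBP1, ULBP3 or CD274 held it at this cutoff, nor did the start-site peak of MICB. The best match had 2 mismatches at ULBP3 and CD274 and 3 at ULBP1 and MICB. The paper states that CTCF peaks were filtered for a CTCF binding motif by another search. A peak without this core may therefore still hold a CTCF motif. The 7 matches are printed here on the strand of the match, with the core in capitals and 3 bases on either side.
ULBP2, chr6:149934338-149934351, plus strand: tgtCCAGCAGATGGCACcac
MICA, chr6:31397099-31397112, plus strand: ctgCCACTAGGTGGAAGcag
MICB, chr6:31475079-31475092, minus strand: ctaCCACCAGGGGGAGGgtt
ULBP3, chr6:150080824-150080837, plus strand: cgtACACCAGAGGGCGCtgc
PVR, chr19:44654609-44654622, plus strand: cagCCACGAGAGGGCAGaag
PVR, chr19:44657132-44657145, plus strand: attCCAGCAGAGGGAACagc
NECTIN2, chr19:44844934-44844947, minus strand: cacCCGCCAGGGGGCAGcag
The match before ULBP2 had no mismatch, and it stood 7669 bp before the start in the stronger of that gene's peaks. The match before NECTIN2 stood 1356 bp before the canonical start, inside the peak with a mean count of 420.1. The 2 PVR matches lay inside the gene. The ULBP3 match was in the upstream peak with a mean count of 280.1, while the stronger peak over the ULBP3 start had none at this cutoff.

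Other genes of the same recognition systems were counted from a list of 26. Of these, 15 had an H3K27ac peak at a start site (67.5% of all protein-coding genes) and 17 had a CTCF peak there (52.8%). None had an Rb region at a start site. Enhancers of either state were listed for 8, either nearest within 100 kb or inside the gene body. By nearest gene within 100 kb alone, without gene bodies, 31.0% of all protein-coding genes had one, so the measures differ. The remaining NKG2D ligands RAET1E, RAET1G and RAET1L had neither mark at their starts, so that 1 of all 8 NKG2D ligands, ULBP3, had start-site H3K27ac. NECTIN4, the B7-family genes PDCD1LG2 (a second PD-1 ligand), VTCN1, CD80 and CD86, the adhesion ligand CD48, the galectin LGALS9 and TNFRSF14 (HVEM) also had no H3K27ac peak at a start site. Enhancers of 1 state alone were listed for 5 genes of the list. In senescent cells alone, 1 was listed for RAET1E, 5872 bp from its start and over the H3K27ac peak with a mean count of 62.0, 1 for CD276 (B7-H3), 1824 bp from a start, 1 for CD24, 47277 bp away, and 1 for NECTIN1. In non-senescent cells alone, 2 were listed for NECTIN1 and 1 for VTCN1. In all, 4 of 15 senescent and 3 of 15 non-senescent enhancers of the list had no overlap in the other state. Among all enhancers, 20.5% of those of senescent cells and 29.4% of those of non-senescent cells had none. The counts of the list are too few to set apart from these shares.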

How the data were processed

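ChIP-seq of EndoC-βH3 cells, 40 libraries with inputs, had been mapped by the authors to hg38 with Bowtie2. The authors called peaks with HOMER (H3K27ac, H3K4me1) or MACS2 (CTCF, Rb), and the authors compared reads in peaks with DESeq2. The paper states that CTCF peaks were filtered for a CTCF binding motif before that comparison. Their tool versions and the way replicates were combined are not given in the sources used here. The deposited signal is the authors' mean over all libraries of counts divided by size factors, and 3 deposited lists hold positions alone. Size factors hide a genome-wide change of a mark. Both tables also hold 5 columns of the authors' own comparison (log2 fold change, its standard error, test statistic, p-value and adjusted p-value), which were not used. No value per library is in the tables, so no test was made. The tables do not give the depth of a library. The read number per sample that the study's methods state was not used, since the deposited means cannot be tied to it.

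Start sites were those of all GENCODE 44 transcripts, the nearest gene was sought among protein-coding genes, and 1 shared base counted as overlap. The 24 chromosome names in the files matched hg38, with 0 regions past a chromosome's end. Levels were divided by peak width. Coordinates are 1-based, on hg38. Interval and motif functions were tested on simulated data. The text names all 9 genes, and others of the list of 26 where they lacked start-site H3K27ac or had an enhancer in 1 state alone; the genes named around a stretch or nearest to a peak were chosen after their values were seen. The 9 genes and all lists were chosen with earlier results of these data known. Python 3 with pandas, numpy and pysam was used.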

Additional observations from a re-analysis of the deposited data

How the results depend on the processing

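Of 24 alternatives that could change a value, 17 kept the count within 1.5 times the reported one; 4 others, the sums of start-site H3K27ac peaks, could not, since each gene had 1 such peak. With the nearest gene sought among all annotated genes, noncoding ones included, the assigned H3K27ac peaks numbered 5, the CTCF peaks 9, and the enhancers 1 in non-senescent and 1 in senescent cells, that of PVR; the CD47 enhancers, that of senescent cells alone included, then fell to noncoding genes. With the nearest gene sought within 50 kb, the enhancers numbered 2 in either state and that of senescent cells alone was no longer assigned to CD47. With a mean count of at least 50, CTCF peaks numbered 10. Peaks with the CTCF core numbered 1 with no mismatch and 13 with at most 2 mismatches. A 5 kb window put CTCF at 8 genes, and canonical starts alone put it at 4, without MICB and PVR. A mean count of at least 50 took NECTIN2 from the H3K27ac genes and ULBP1 from the CTCF genes. No paired analysis was possible because the tables hold no value per library, and for the same reason no library could be left out in turn. The values are pooled means, so no level here carries an error, and a gene without a listed peak may hold signal under the authors' threshold.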
